A study of Daphnia magna with 12 samples.

Results

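The 123 probes described here gave a moderately higher signal in Daphnia magna exposed to either of 2 copper forms than in unexposed animals. They are 123 of 4247 probes in the value table and were chosen by their own measured values. For each probe the plain means of the 4 arrays of a group were taken. Members had a CuO minus blank difference and a CuCl2 minus blank difference of at least 1 on the log2 scale (2-fold), with the smaller of both below 1.5. Another 102 probes, whose smaller difference was at least 1.5, and 82 probes lowered by at least 1 in both copper groups serve for comparison below.

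The copper groups were CuO (4 pools exposed to copper oxide nanoparticles) and CuCl2 (4 pools exposed to the dissolved copper salt, labelled as the dihydrate in the design text). The blank group was 4 pools kept without added copper. Every pool was the RNA of 40 whole water fleas, labelled with an age of 96 hours at sampling, after 96 hours in ISO test medium with algae as food. Both copper forms were dosed at the concentration labelled EC10 for immobilisation, so the exposures were matched by effect. Each pool shared a 2-colour Agilent array with a reference mixed in equal parts from the 3 groups. Replicates 1 and 2 of every group carried cy3 and replicates 3 and 4 carried cy5.

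Daphnia magna is a filter-feeding freshwater crustacean and a standard species of toxicity testing. Copper is a cofactor of enzymes such as cytochrome c oxidase and superoxide dismutase, and in excess it binds thiol groups and drives the formation of reactive oxygen species. Copper oxide nanoparticles release copper ions in water and can also be swallowed as particles by filter feeders. Animals commonly answer excess copper through metallothioneins, which bind the metal, through glutathione-dependent enzymes and through heat shock proteins. None of the 4247 probe IDs occurs in the RefSeq gene table (assembly ASM2063170v1.1), so no member can be placed among these or any other genes, and the labelled tissue could not be checked against marker genes. The 123 members carry 123 different ID numbers, and no number in the table has a second probe that could serve as a check. Different numbers need not be different genes, which could not be checked. RNA came from whole animals, in which a shift in the number of cells of one kind and a shift in RNA per cell cannot be told apart.

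A value is the log ratio of a pool to the reference, and base 2 and the direction sample over reference are readings that the files do not state. An equal mixture requires the linear ratios of the 3 groups to average 1, a log2 of 0. Over the 123 members the log2 of that average had a median of -0.05 as deposited, with quartiles of -0.13 and 0.05. It had a median of 0.32 with every sign turned, 0.0018 on a natural log scale and 0.46 on a log10 scale. Over all probes the median was -0.00054 as deposited, 0.047 with every sign turned and 0.017 on a natural log scale. As deposited and on a natural log scale it was -0.045 and 0.061 in the 102 more strongly raised probes. In the 82 lowered probes it was -0.018 and 0.096. The likely direction is therefore sample over reference, while base 2 and natural log are not separated. With the sign turned the same probes would be lowered by copper. All 15 control spots had opposite mean signs in the 2 dye orientations, while group means of the remaining probes, centred per probe, had r = 0.75 between orientations, so columns were not turned. Within one orientation, the lowest correlation between arrays was r = -0.55 (CuCl2 replicate 4 and blank replicate 3), which a reference mixed from exposed and unexposed animals allows. Arrays differed in scale. Among the CuCl2 arrays, replicate 4 had an SD of 0.711 over all probes, against 0.386 to 0.434 on the others. Blank arrays were also wide, with SDs of 0.533 to 0.654, and CuO arrays had 0.357 to 0.439.

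Members sat slightly above the reference in copper-exposed animals and well below it in blanks. Group means of the members had a median of 0.17 in CuO animals (range -0.39 to 0.87), 0.39 in CuCl2 animals (-0.17 to 0.83) and -1.05 in blanks (-1.70 to -0.32). The mean was above 0 for 97 members in CuO and 118 in CuCl2, while all 123 blank means were below 0. On the linear scale the median member stood at 1.13 times the reference in CuO pools, 1.31 times in CuCl2 pools and 0.483 times in blank pools. These levels follow in part from the choice of members.

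**Figure D1:**
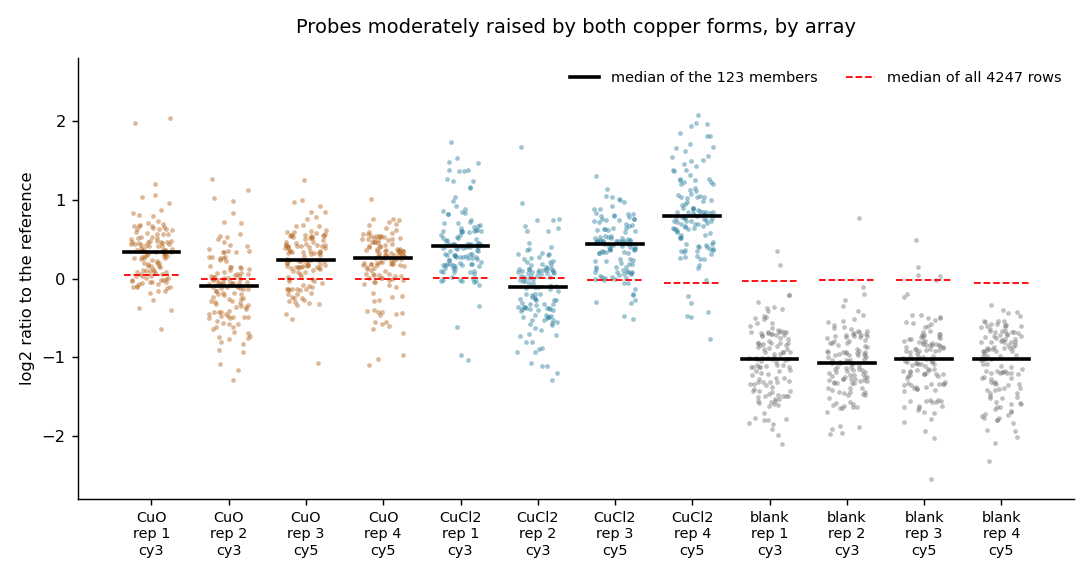
Log2 ratio to the reference of the 123 members (points) on each of the 12 arrays (x axis, with dye), grouped as CuO, CuCl2 and blank. Black bars are the medians over members and dashed red bars the medians over all 4247 probes. Member medians ran from -0.10 to 0.33 on CuO arrays, from -0.11 to 0.80 on CuCl2 arrays and from -1.08 to -1.02 on blank arrays.

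The differences that chose the members are given as a description. CuO minus blank ran from 1.00 to 1.74, with a median of 1.20 (2.29-fold), and CuCl2 minus blank from 1.02 to 2.34, with a median of 1.40 (2.64-fold). Standard errors from the limma fit ran from 0.11 to 0.61, with a median of 0.21, against 0.16 over all probes. The fit shares one estimate of spread over the 3 groups, so every difference between groups of a probe has the same SE. Both differences lay below 1.5 for 71 members. Of the other members, 48 reached 1.5 with CuCl2 and 4 reached it with CuO. Those 4 were DM06656P1, DM06904P2, DM08578P1 and DM09013P1, named after their values were seen, with CuO minus blank differences of 1.74, 1.61, 1.61 and 1.54.

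**Figure D2:**
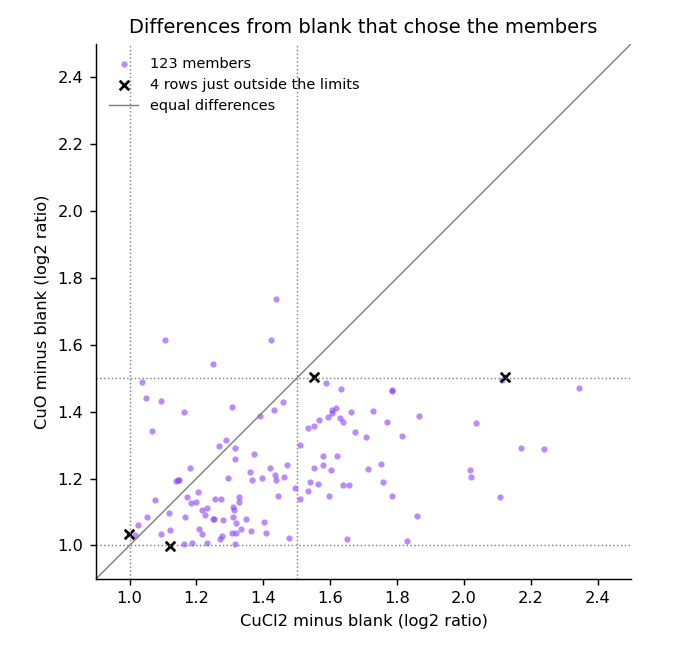
CuO minus blank (y axis) against CuCl2 minus blank (x axis) in log2 ratio for the 123 members. Dotted lines mark the limits 1 and 1.5, the solid line equal differences, and crosses the 4 probes just outside the limits. Most points, 103 of 123, lie below the line of equal differences.

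Called higher at a limma adjusted p under 0.05 were 108 members in CuO and 119 in CuCl2. Over all probes 17.4% were called higher in CuO and 21.1% in CuCl2, and since the choice of members used these contrasts nothing is read from the counts. All 4 CuO values lay above all 4 blank values for 105 members (13.6% of all probes), and the same number held for CuCl2 (14.1% of all probes). All 8 copper values lay above the blanks for 98 members (10.7% of all probes). At the other end, the 4 members without a CuCl2 call were DM00848P1, DM05046P1, DM06458P2 and DM06904P2.

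The limits cut through a continuous distribution. Just inside the lower limit, DM12531P2 and DM04102P1 had smaller differences of 1.004 and 1.003, and just outside it DM09850P1 and DM08238P1 had 0.999 and 0.998. Just inside the upper limit, DM06878P3 and DM09916P3 had smaller differences of 1.495 and 1.486, and just outside it DM10549P2 and DM10472P3 had 1.505 and 1.504. Of the 123 members, 96 met the rule without CuO replicate 1 and 119 without CuCl2 replicate 3, the lowest and highest numbers among the 12 omissions of a single array.

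The largest mean rises belonged to probes whose CuCl2 pools disagreed widely, which is given as a description. The ranking used the group means of the rule, into which the wide CuCl2 replicate 4 entered. With the smaller difference held below 1.5, a large mean rise also requires a large value of the other difference. DM10478P1, with the largest mean difference, had log2 ratios of 0.51, -0.43, -0.30 and -0.69 in CuO replicates 1 to 4. It had 1.74, -0.49, -0.52 and 1.85 in CuCl2 replicates 1 to 4, and -1.50, -1.51, -2.03 and -1.75 in the blanks. Both copper groups lay wholly above the blanks, but CuCl2 replicates 1 and 4 stood more than 2 log2 units above CuCl2 replicates 2 and 3. Its differences from blank were 1.47 for CuO and 2.34 for CuCl2, each with an SE of 0.53. That SE pools groups of unlike spread, with SDs of 0.52 in CuO, 1.33 in CuCl2 and 0.25 in blank pools.

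DM02238P2 had 0.57, -1.29, -0.25 and -0.44 in the CuO pools and 1.24, -0.89, 0.07 and 1.98 in the CuCl2 pools. Its blanks had -1.84, -1.44, -1.79 and -1.49. The second replicate was the lowest of its 4 pools in both copper groups. DM01714P2 followed the same order in both copper groups, with 0.18, -0.80, -0.03 and -0.41 in CuO pools and 1.38, -0.94, 0.05 and 1.97 in CuCl2 pools, above blanks at -1.86, -1.45, -1.57 and -1.34. In all 3 probes the blanks spread far less (SD 0.20 to 0.25) than the CuCl2 pools (SD 1.27 to 1.33, n = 4 each).

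DM06878P3, the remaining probe of the top 4, had 0.46, 0.01, -0.34 and -0.24 in CuO, 1.24, -0.52, 0.14 and 1.49996 in CuCl2 and -0.82, -1.69, -1.55 and -2.02 in blank pools. Its CuCl2 replicates 1 and 4 were again the highest. CuCl2 replicates 1 and 4 both exceeded CuCl2 replicates 2 and 3 for 47 of the 123 members (38.2%), against 13.9% of all probes. The share was 49.0% among the 102 more strongly raised probes. As CuCl2 replicate 4 entered the means that chose both sets, nothing is read from these shares.

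Of the 4 members with the smallest mean differences, 3 had copper pools wholly above the blanks. DM08685P4 had 0.96, 0.15, 0.39 and 0.40 in CuO, 0.82, 0.14, 0.33 and 0.56 in CuCl2 and -1.03, -0.19, -0.46 and -0.54 in blank pools. Its differences from blank were 1.03 for CuO and 1.02 for CuCl2 (SE 0.22). DM12275P1 had 0.38, 0.13, 0.44 and 0.53 in CuO, 0.24, -0.03, 0.41 and 0.73 in CuCl2 and -0.52, -0.71, -0.76 and -0.77 in blank pools. DM09594P2 had 0.19, -0.04, 0.92 and 0.50 in CuO, 0.13, 0.08, 0.48 and 0.75 in CuCl2 and -0.70, -0.82, -0.62 and -0.64 in blank pools. In both probes the second CuO and the second CuCl2 pool were the lowest of their 4, and no copper pool reached down to a blank. DM03208P2 differed from these, with 0.80, 1.02, 0.22 and -0.55 in CuO, 0.53, 0.76, 0.45 and -0.02 in CuCl2 and 0.36, -0.35, -0.72 and -1.94 in blank pools. Its groups overlapped, since blank replicate 1 lay above CuO replicates 3 and 4 and CuCl2 replicate 4, and its pooled SD was 0.71.

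The members with the smallest pooled SDs are given as a description. DM06699P3, with a pooled SD within groups of 0.16, had 0.32, 0.05, 0.38 and 0.29 in CuO, 0.24, 0.41, 0.36 and 0.76 in CuCl2 and -0.73, -0.73, -0.68 and -0.84 in blank pools. DM12119P3 had 0.43, 0.52, 0.50 and 0.46 in CuO, -0.04, 0.14, 0.49 and 0.37 in CuCl2 and -0.89, -1.15, -0.84 and -0.80 in blank pools. DM06109P3 had 0.64, 0.43, 0.55 and 0.30 in CuO, 0.32, 0.21, 0.48 and 0.69 in CuCl2 and -0.50, -0.83, -0.81 and -0.88 in blank pools. In each of these 3 probes all 8 copper values lay above all 4 blanks, which small SDs and differences of at least 1 nearly fix.

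The least reproducible members were DM12902P2, DM00848P1 and DM04344P1, with pooled SDs of 1.00, 0.92 and 0.89. DM04344P1 had 0.56, -1.16, 0.35 and -0.98 in CuO, 0.85, -0.90, 0.00058 and 2.07 in CuCl2 and -1.53, -1.47, -1.38 and -1.68 in blank pools. Its blanks agreed closely while its copper pools lay far apart. DM12902P2 had CuO values from -1.02 to 1.25, CuCl2 values from -0.63 to 1.81 and blank values from -2.55 to -0.34. DM00848P1 had CuO values from -0.0039 to 2.04, CuCl2 values from -0.32 to 1.67 and blank values from -1.38 to 0.77. The groups overlapped in both. Over the 123 members the median SD was 0.34 in CuO, 0.48 in CuCl2 and 0.30 in blank pools, and over all probes it was 0.27, 0.30 and 0.27. CuCl2 had the largest SD of the 3 groups for 73 members (59.3%), against 42.6% of all probes and 71.6% of the more strongly raised ones.

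Deviations of single arrays from their own group mean are given as a description, since an array of wide spread such as CuCl2 replicate 4 weighs more on which probes have a high group mean. In CuCl2 replicate 2 only 14 of the 123 members lay above the CuCl2 mean, and the median deviation was -0.53 on the log2 scale. In CuCl2 replicate 4 it was 0.42, with 110 members above the mean. CuCl2 replicates 1 and 3 lay near the mean, with median deviations of 0.0034 and 0.053. Over all probes 53.1% lay above the group mean in CuCl2 replicate 2 and 46.1% in CuCl2 replicate 4, with median deviations of 0.031 and -0.032. The median of every array over all probes lay between -0.057 and 0.041. Median deviations near 0 over all probes are therefore nearly given, and they do not bear on a change of array scale.

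CuCl2 replicate 2 gave the lowest of the 4 CuCl2 values for 96 members (78.0%, against 31.3% of all probes). CuCl2 replicate 4 gave the highest for 86 (69.9%, against 26.4%). Both held at once for 79 members (64.2%, against 17.6% of all probes and 79.4% of the more strongly raised ones). CuO replicate 2 was the low array of its group, with a median deviation of -0.26 and 23 of 123 members above the mean, while CuO replicates 1, 3 and 4 had 0.13, 0.10 and 0.031. It was the lowest of the 4 CuO values for 69 members (56.1%, against 28.4% of all probes). Blank arrays showed no such spread, with median deviations from -0.016 to 0.017 and 59 to 63 members above the mean on each. With the dye offset of every probe removed, an alternative chosen after seeing the data, the median deviations of CuO replicates 1 to 4 were 0.23, -0.17, -0.013 and -0.056, with 106 members above the mean in CuO replicate 1 and 24 in CuO replicate 2. CuO replicate 1 then stood further from its group than CuO replicate 2. Those of CuCl2 replicates 1 to 4 were 0.13, -0.35, -0.035 and 0.30, with 91 and 109 members above the mean in CuCl2 replicates 1 and 4. Those of the blanks were 0.11, 0.099, -0.099 and -0.11. Scaling by the median absolute deviation, dye offset kept, gave CuCl2 replicates 1 to 4 median deviations of 0.15, -0.51, 0.097 and 0.23. The values as deposited were 0.0034, -0.53, 0.053 and 0.42. What part the scale of the arrays had in any of these deviations was not tested.

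**Figure D3:**
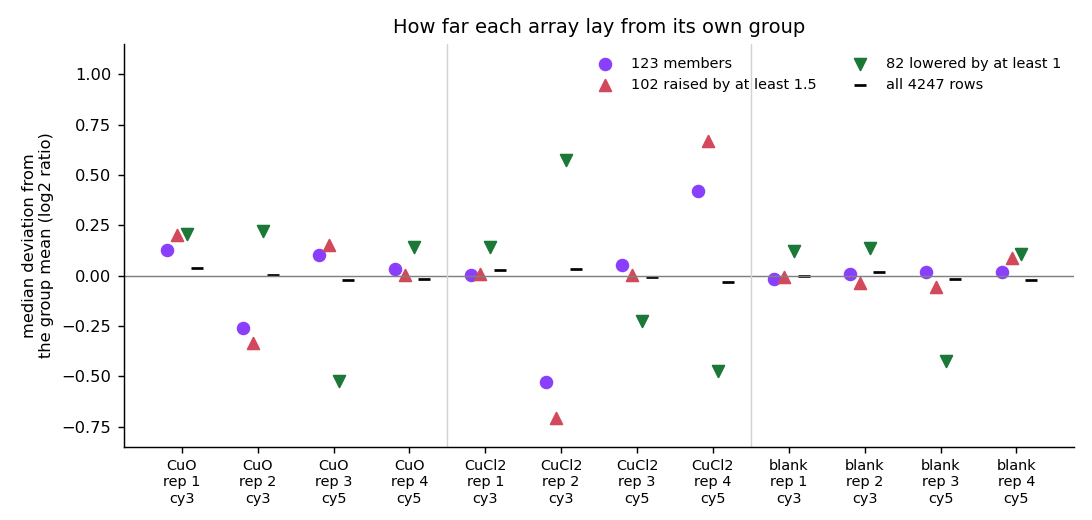
Median deviation of each array from the mean of its own group, in log2 ratio (y axis), for the members, the 102 more strongly raised probes, the 82 lowered probes and all 4247 probes, on the 12 arrays (x axis). Members and more strongly raised probes were low in CuO replicate 2 and CuCl2 replicate 2 and high in CuCl2 replicate 4, where the lowered probes had 0.22, 0.58 and -0.47.

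The probes on either side were compared on the same arrays. The 102 more strongly raised probes had median deviations of -0.34 in CuO replicate 2, -0.71 in CuCl2 replicate 2 and 0.67 in CuCl2 replicate 4, each in the direction of the members and larger. The 82 lowered probes had 0.22, 0.58 and -0.47 on those arrays, the opposite direction. Their lowest arrays in the CuO and blank groups were CuO replicate 3 (-0.52) and blank replicate 3 (-0.42). With the dye offset removed the lowered probes had 0.015 in CuO replicate 2 (42 of 82 above the mean). They had 0.36 in CuCl2 replicate 2 and -0.26 in CuCl2 replicate 4. The opposite direction was then no longer seen in CuO replicate 2. A first component of the members' deviations held 48.2% of their sum of squares, against 43.5% for all probes. With the dye offset of every probe removed it held 58.9%, against 38.1% for all probes and 68.6% for the more strongly raised ones. CuCl2 replicates 2 and 4 had the largest weights on it, -0.60 and 0.52. The same arrays had the largest weights over all probes (-0.54 and 0.60) and in the more strongly raised probes (-0.60 and 0.55). In the lowered probes the first component held 38.4%, with the largest weights on CuO replicates 3 and 4 (0.48 and -0.48).

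The direct comparison of the nanoparticle with the salt asked whether members differed between the copper forms. The rule used the means of both groups and so ties them together, and the counts over members below are a description. CuO lay below CuCl2 for 103 of the 123 members (83.7%), against 46.0% of all probes. The median difference was -0.21 on the log2 scale, against 0.02 over all probes. Among the 102 more strongly raised probes CuO was lower for 93 (91.2%), with a median of -0.29. Among the 82 lowered probes CuO lay above CuCl2 for 67, with a median of 0.17. No member passed the limma test (adjusted p under 0.05 over 4247 probes, two-sided), nor did any probe of the table (0.0% called), and the smallest adjusted p among members was 0.839. Without adjustment, 5 members (4.07%) had a limma p under 0.05, all lower in CuO. Over all probes 4.66% had such a p in either direction, and 2.28% had it with CuO lower. For no member did the 4 CuO and 4 CuCl2 values separate, which they did for 1.11% of all probes.

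Those 5 members were DM06797P1, DM07749P3, DM02785P2, DM08742P3 and DM07282P3, with CuO minus CuCl2 differences of -0.96, -0.64, -0.48, -0.48 and -0.46, the last 4 named after their values were seen. DM08742P3 and DM07282P3 had nearly the same differences from blank, 1.18 each for CuO and 1.66 and 1.64 for CuCl2. DM06797P1 had -0.067, -0.41, -0.19 and 0.0099 in CuO pools and 0.71, 0.0027, 0.93 and 1.55 in CuCl2 pools. Its blanks had -1.47, -1.65, -1.57 and -0.54, with blank replicate 4 far above the other 3. The CuO and CuCl2 ranges met only through CuCl2 replicate 2, and the 95% interval of the difference was -1.53 to -0.39 (limma adjusted p = 0.839). These intervals hold for one probe alone, with no allowance for the choice among 4247.

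DM02238P2 and DM01714P2 had the next lowest differences, -0.95 (95% interval -2.15 to 0.24) and -0.88 (-1.99 to 0.23). Both intervals include 0. The highest differences were those of DM06904P2, DM05046P1 and DM06458P2, at 0.51 (-0.41 to 1.43), 0.45 (-0.46 to 1.36) and 0.39 (-0.60 to 1.38). DM06904P2 had 0.67, 0.053, 0.17 and 0.46 in CuO, -0.97, 0.45, 0.32 and -0.49 in CuCl2 and -1.80, -1.002, -0.20 and -2.10 in blank pools. DM05046P1 had 0.65, 0.0097, 0.24 and 0.54 in CuO, -1.04, 0.36, 0.52 and -0.22 in CuCl2 and -1.79, -0.97, 0.037 and -1.80 in blank pools. In these 2 probes CuCl2 replicates 1 and 4 were the low ones and blank replicate 3 the high one, the reverse of the order in DM10478P1. DM06458P2 also had its highest blank in replicate 3, at 0.49 against -1.97 to -1.23 in the other blanks.

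The interval of the CuO minus CuCl2 difference lay within 2-fold either way for 93 members (75.6%, against 88.2% of all probes). It lay within 1.5-fold for 39 (31.7%, against 63.2%). The median difference depended on single arrays. From plain group means it was -0.40 without CuCl2 replicate 2, -0.07 without CuCl2 replicate 4 and -0.11 without CuO replicate 2, with 109, 82 and 92 members lower in CuO. Without CuCl2 replicates 2 and 4, an omission chosen after seeing the data, it was -0.25 with 105 members lower. The limma fit without CuCl2 replicate 2 gave 45 members (36.6%) at an unadjusted p under 0.05, all lower in CuO, and 0 after adjustment. Over all probes 14.5% had such a p in either direction, and 7.44% had it with CuO lower.

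**Figure D4:**
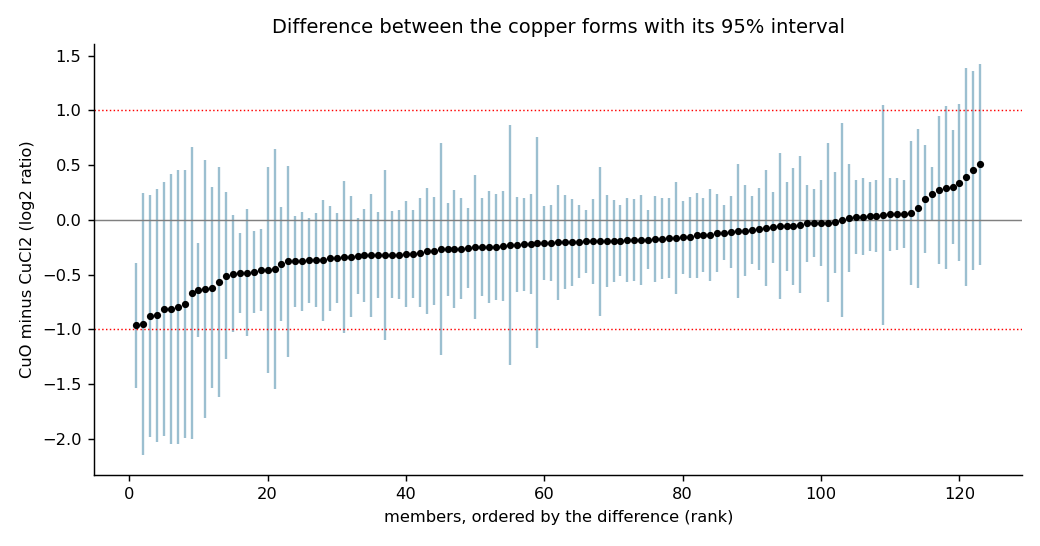
CuO minus CuCl2 difference in log2 ratio (y axis) of each of the 123 members, ordered by size (x axis), with its 95% interval from the limma fit. Dotted red lines mark a 2-fold difference either way. The points lie below 0 for 103 members, and 118 of the intervals include 0.

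Every group held 2 arrays of each dye, but the arrays differed in spread, and the wide CuCl2 replicate 4 is a cy5 array that entered the means by which members were chosen. The dye coefficient is therefore not independent of that choice and is given as a description. It passed the limma threshold for 41 members (33.3%), against 32.7% of all probes. Of the 41, 33 were higher on cy5 and 8 lower, whereas over all probes 587 were higher and 801 lower. The median cy5 minus cy3 coefficient was 0.19 in members, 0.25 in the more strongly raised probes, -0.50 in the lowered probes and -0.04 in all probes. It was above 0 for 84 members (68.3%) and for 80 of the 102 more strongly raised probes (78.4%), and below 0 for 67 of the 82 lowered ones. The median over members was 0.086 without CuCl2 replicate 2, 0.077 without CuCl2 replicate 4 and 0.10 with array weights.

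DM11790P4 had the highest coefficient, 1.05. It had -0.28, -0.29, 0.76 and 0.52 in CuO, 0.089, -0.47, 1.05 and 0.84 in CuCl2 and -1.55, -1.98, -0.83 and -0.55 in blank pools. In each group both cy5 pools lay above both cy3 pools, so that the highest blank (-0.55) and the lowest CuCl2 pool (-0.47) came close only across dyes. DM06124P2 and DM08601P3 had coefficients of 0.94 and 0.93, and in each group both cy5 pools again lay above both cy3 pools. In DM08601P3, however, CuO replicate 2 (-0.64) lay below blank replicate 4 (-0.40). On the other side DM02717P2 had -0.84, with 0.58, 0.029, -0.45 and -0.43 in CuO, 0.52, 0.27, -0.30 and 0.13 in CuCl2 and -0.21, -0.79, -1.82 and -1.80 in blank pools. DM03208P2 had -0.95, and DM00848P1 had the lowest coefficient, -1.03.

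The size of the copper difference was then compared between the cy3 arrays (replicates 1 and 2) and the cy5 arrays (replicates 3 and 4), again as a description. Dye and replicate numbers cannot be told apart in this comparison. The median CuO minus blank difference of the members was 1.17 on cy3 and 1.26 on cy5 arrays, and it was larger on cy5 for 71 of 123 members (49.1% of all probes). For CuCl2 minus blank the medians were 1.21 on cy3 and 1.65 on cy5 arrays, larger on cy5 for 110 of 123 members (49.0% of all probes). Tested probe by probe, 0 members passed for CuO and 0 for CuCl2 (limma adjusted p under 0.05, 0.0% of all probes in each), with 4 (3.25%) and 17 members (13.8%) at an unadjusted p under 0.05, against 2.64% and 6.1% of all probes. Those 4 were DM01991P2, DM06656P1 and DM12344P3, larger on cy5 by 1.00, 0.91 and 0.72, and DM12699P2, smaller by 1.26 (coefficient -1.26). Without single arrays these differences between dyes changed. The CuO coefficient, cy5 minus cy3 of the difference from blank, had a median of 0.073 over members, which was 0.325 without CuO replicate 1 and turned to -0.14 without CuO replicate 2. It was 0.26 after quantile normalization and 0.29 after scaling by the median absolute deviation. The CuCl2 coefficient had a median of 0.50 over members, of 0.76 without CuCl2 replicate 1, of 0.175 without CuCl2 replicate 2 (both cy3) and of 0.24 without CuCl2 replicate 4 (cy5). The larger CuCl2 difference on cy5 was also present in 95 of the 102 more strongly raised probes (93.1%), and the lowered probes had medians of -1.22 on cy3 and -1.54 on cy5 arrays.

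All 123 members had positive differences from blank in both orientations for both forms, a direction that the choice of members largely fixes. The CuO difference reached 1 for 93 members on cy3 and 112 on cy5 arrays (7.72% and 7.16% of all probes). The CuCl2 difference reached 1 for 92 on cy3 and 119 on cy5 arrays (6.69% and 11.1% of all probes). The 4 members below 1 on cy5 were DM00848P1, DM06458P2, DM08685P4 and DM12699P2.

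**Figure D5:**
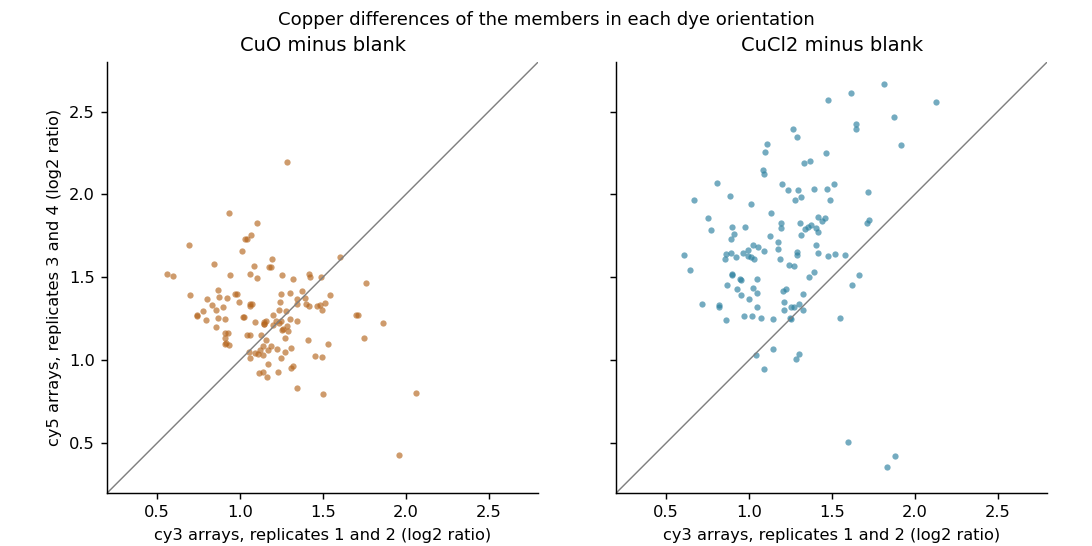
Difference from blank in log2 ratio on the cy5 arrays (y axis) against the cy3 arrays (x axis) for each of the 123 members, for CuO (left) and CuCl2 (right). The line marks equal differences. The CuCl2 points lie above the line for 110 members and the CuO points for 71.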

How the data were processed

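The authors deposited log ratios of the 2 channels, read here as log2 because limma is named in the submitters' processing notes; no version is given there. The sources used here do not state the background correction, the normalization or the choice of rows. The 12 pools were labelled from 100 ng RNA after medium renewal at 48 hours, per the labels' protocols. The table had 4262 rows, of which 15 control rows were set aside, and 0 missing values. Scanner signals, zinc exposures and sequences were not used here, and the number of arrays limits the precision. Fits used limma 3.58.1 in R 4.3.3 across all 4247 probes, with group and dye as terms (8 residual degrees of freedom) or 6 group-by-dye cells (6), empirical Bayes and Benjamini-Hochberg adjustment at 0.05, and were tested on simulated data. Summaries used pandas 2.3.3. Members and lists were chosen with earlier results of these data known. Probes were named by rank: largest and smallest mean difference (4 each), CuO minus CuCl2, pooled SD and dye coefficient (3 at each end), and 2 on each side of each limit. Gene lists by name could not be applied. Per the labels, replicates are separate exposures, and no 2 replicates held the same values (root mean square difference at least 0.421). Alternatives changed array scaling (median centring, quantiles, median absolute deviation), the dye term, the replicate block, the groups fitted, the prior, array weights, and each array left out.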

Additional observations from a re-analysis of the deposited data

Results flagged for a closer look

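A lone distant array was looked for in 81 sets of 4 values and found in 4 of them, where 1 in 20 is the share by chance. CuO replicate 4 had the narrowest values of its group over all probes (SD 0.357, the rest 0.429 to 0.439). CuCl2 replicate 4 had the widest (SD 0.711, the rest 0.386 to 0.434). Among blanks, replicate 2 had a member median log2 ratio of -1.08, slightly below the -1.03 to -1.02 of the remaining 3. For DM06797P1, blank replicate 4 stood at -0.54 and the remaining blanks at -1.65 to -1.47.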

How the results depend on the processing

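Membership changed more with the scaling of the arrays than the numbers of called members did, though these changed too. The rule gave 113 (without CuO replicate 1) to 143 probes (without blank replicate 3) when 1 array was left out. It gave 90 after quantile normalization, with 46 of the 123 members among them and 77 members below 1, and 106 after scaling to one median absolute deviation, with 76 members among them. It gave 121 after centring (113 shared), 136 within the cy3 arrays (75 shared), 147 within the cy5 arrays (90 shared) and 131 from medians (99 shared). With 1 array left out, members called numbered 97 to 116 for CuO minus blank (19.0% to 32.4% of all probes in either direction), 111 to 119 for CuCl2 minus blank (31.0% to 44.6%) and 29 to 38 for dye (27.2% to 32.0%). They numbered 0 for CuO minus CuCl2 (0.0%), for the CuO effect by dye (0.0% to 0.0706%) and for the CuCl2 effect by dye (0.0% to 0.0471%). The median CuO minus CuCl2 difference then ran from -0.40 to -0.07. After quantile normalization 97 members were called for CuO minus blank (26.7% of all probes in either direction) and 101 for CuCl2 minus blank (31.3%). With only the 2 groups compared in the fit, 119 members (30.5%) and 115 members (34.8%) were called. For CuO minus CuCl2, 0 members were also called under each of the other settings run, with 1 (no dye term, 1.7% of all probes) to 20 (without CuCl2 replicates 2 and 4, 6.59%) at an unadjusted p under 0.05, and 5 in the limma fit reported (4.66%).

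The median deviation of blank replicate 1 over members was 0.0354 after scaling and 0.11 with the dye offset removed. That of blank replicate 2 was -0.0181 after quantile normalization, 0.0918 after scaling and 0.10 with the dye offset removed. That of blank replicate 3 was -0.0516, -0.12 and -0.10 under the same settings. That of blank replicate 4 was 0.0394 after centring, 0.0728 after quantile normalization and -0.11 with the dye offset removed. The cause was not tested.

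Arrays of the same replicate number shared a dye. Their deviations correlated at 0.18 to 0.54 as deposited, and at -0.36 to 0.32 with the dye offset removed, where 4 of 12 pairs passed 0.1, so the numbers were not taken as pairs. With a replicate block in place of the dye term, 109 members were called for CuO minus blank (29.0% of all probes in either direction), 122 for CuCl2 minus blank (39.9%) and 0 for CuO minus CuCl2 (0.0%).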
